A study of Mus musculus with 24 samples.

Results

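The genes described here are 8 that mark naive and memory precursor T cells: Tcf7, Lef1, Foxo1, Bach2, Id3, Satb1, Myb and Slamf6. They were taken by symbol from the 48526 genes in the files, and all 8 were among the 14560 genes that passed the filter on low counts. The libraries are from CD8+ T cells of OT-1 mice, in which a transgene gives CD8 T cells 1 receptor against a peptide of ovalbumin. The groups set agonists of Toll-like receptors (TLRs) beside peptide alone during activation. Spleen cells of all 6 groups received peptide at 2 µg/mL, the T cells were then enriched by removing other cells, and each group holds 4 libraries. The groups called OVA had peptide alone for 24 h or 72 h. The groups called TLR2 also had a TLR2 agonist (this receptor senses lipoproteins of bacteria), and those called TLR7 a TLR7 agonist (this one senses single-stranded RNA), each given 1 h before the peptide and taken at 24 h or 72 h. The labels list Pam3CSK4 at 300 ng/mL, which acts on TLR2, and gardiquimod at 3 µg/mL and R848 at 10 µg/mL, which both act on TLR7. They do not say which of the last pair was used in the sequenced groups. Because the agonists were added to whole spleen cells, they could act on other cells of the culture as well as on T cells.

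A naive CD8 T cell keeps a set of transcription factors that hold it in a resting, long-lived state, and strong activation lowers many of them as the cell becomes an effector. TCF-1 (encoded by Tcf7) and LEF-1 bind the same DNA motif and keep naive and memory genes active, FOXO1 drives homing and survival receptors until kinases of the AKT pathway send it out of the nucleus, and BACH2 sits on AP-1 sites and holds back effector genes. ID3 blocks the DNA binding of E proteins and is kept in memory precursors, SATB1 organizes chromatin, and MYB supports stem-like memory cells. SLAMF6 is a surface receptor of the SLAM family that is used, together with TCF-1, to recognise precursor cells, and that B cells carry too.

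Depth, and position on the first principal component (the axis of largest variation), differed between libraries of 1 group that share a labelled time. Totals were 21.5 to 27.1 M counts in 19 libraries and 10.5 to 11.7 M in 5, the shallow libraries, 2 of which are TLR7 at 72 h. On the first principal component of all genes other than these 8, which held 60.2% of the variance and followed time, 8 libraries lay in the central one of 3 equal stretches of the range: OVA 24 h replicates 1 and 3, OVA 72 h replicate 4, TLR2 72 h replicates 1, 3 and 4, and TLR7 24 h replicates 3 and 4. They are called middle libraries here, and the other 16 clear libraries. By label, 4 of the middle libraries are of 24 h and 4 of 72 h, and 0 of them were shallow. Why they lie there, and whether any are mixed or mislabelled, was not tested. OVA 72 h replicate 3 stood apart in another way, described below. The 10 markers of CD8 T cells summed to 2156 to 5441 CPM in every library (CPM are counts scaled to library size). Their mean sum was higher at 72 h than at 24 h with each agent. It was 3633 and then 4880 CPM with OVA, 2911 and 3905 with TLR2, and 2986 and 4858 with TLR7. The part of this in the levels of the 8 genes was not tested. Nothing in the labels tells separate animals or cultures from repeat libraries, so the p-values cover the spread among these libraries only, and that spread may be technical. In bulk RNA, fewer cells of a type and less RNA per cell cannot be told apart.

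TCF-1 and LEF-1 are themselves members, so the upstream regions of the 8 genes were searched for letters of their motif, CTTTGA, on both strands. The 250 bases before each of 16 RefSeq start sites (GRCm38.p6) were read, and 2 of the 16 held the letters, 1 at Bach2 and 1 at Lef1, against 13.8% of 32851 promoters of that length. Both windows lie before a start inside the gene as annotated in GENCODE and touch none of its exons. They are shown because they are the only 2 of the 16 that held the letters, which stand in capitals (TCAAAG on the printed strand). The Bach2 window is chr4:32417185-32417434 and the Lef1 window chr3:131156044-131156293, both on the plus strand.
Bach2: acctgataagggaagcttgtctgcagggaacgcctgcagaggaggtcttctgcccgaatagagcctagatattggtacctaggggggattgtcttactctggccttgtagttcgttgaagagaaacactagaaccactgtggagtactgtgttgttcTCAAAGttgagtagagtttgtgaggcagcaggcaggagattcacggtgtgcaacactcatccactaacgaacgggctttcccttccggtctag
Lef1: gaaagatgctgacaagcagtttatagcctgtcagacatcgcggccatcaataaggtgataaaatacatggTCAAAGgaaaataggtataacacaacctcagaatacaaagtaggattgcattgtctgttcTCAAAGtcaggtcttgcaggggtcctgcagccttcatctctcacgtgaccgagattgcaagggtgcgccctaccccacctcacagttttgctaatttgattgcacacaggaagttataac
The Lef1 window holds the letters 2 times and the Bach2 window 1 time. The letters TGTTTAC (FOXO) and TGANTCA (AP-1 and BACH2) were in 0 of the 16 windows, against 3.17% and 6.75% of all promoters. A match describes the letters only.

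Per kilobase of exon, the mean level over each group ran from 28.5 to 141 CPM per kb for Tcf7, 18.7 to 44.5 for Satb1, 6.25 to 27.3 for Bach2, 6.55 to 22 for Lef1 and 10.4 to 16.1 for Foxo1. It ran from 3.77 to 8.23 CPM per kb for Id3, from 1.92 to 12.1 for Myb and from 1.82 to 5.73 for Slamf6. Per length, Tcf7 had the highest mean of the 8 in 5 of 6 groups, and in TLR7 at 72 h Satb1 did. Between the highest and the lowest group mean, Myb spanned 6.33-fold, Tcf7 4.94-fold, Bach2 4.37-fold, Lef1 3.36-fold, Slamf6 3.14-fold, Satb1 2.38-fold, Id3 2.18-fold and Foxo1 1.54-fold. In each of the 8 orders, neighbouring groups overlapped in their libraries, with 1 exception: Slamf6 in TLR7 at 72 h lay below its neighbour, TLR7 at 24 h.

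**Figure D1:**
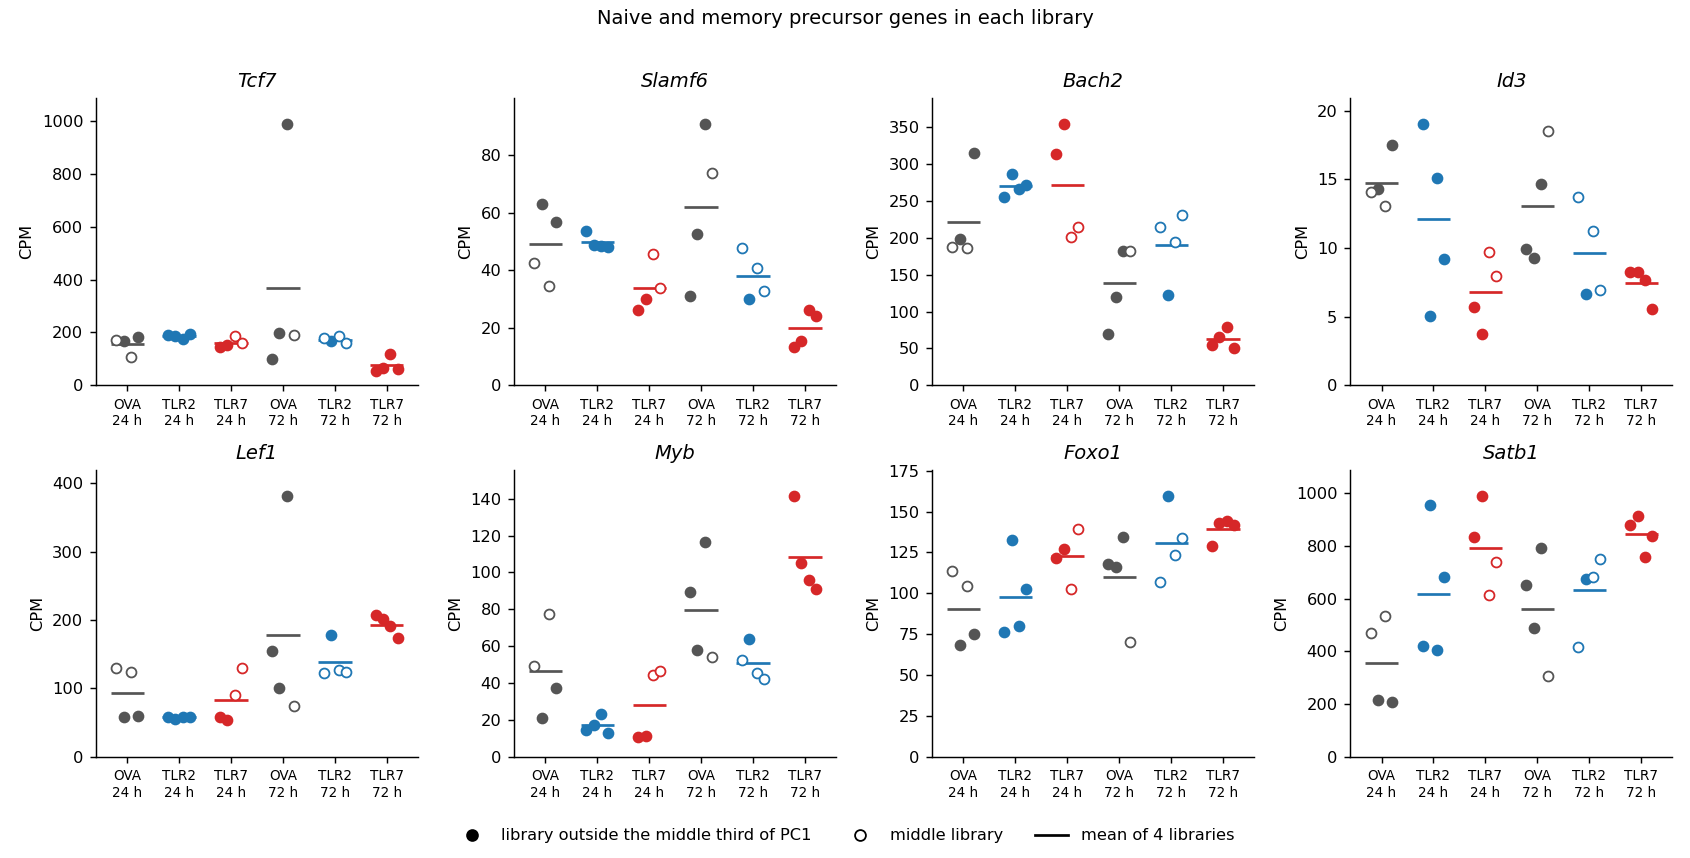
CPM (linear axis from 0) of each gene in each of the 24 libraries, by agent and time; filled points are clear libraries, open points middle libraries and bars the mean of 4. Tcf7, Slamf6 and Bach2 are lowest in TLR7 at 72 h, Lef1 and Myb are higher at 72 h than at 24 h with TLR2 and with TLR7, and 1 OVA library at 72 h holds 988 CPM of Tcf7.

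Tcf7 (ENSMUSG00000000782, chromosome 11, 52252371 to 52283014, minus strand, GRCm38) was held at a similar level in most of the study and was low in TLR7 at 72 h. With peptide alone at 24 h it stood at 171, 167, 108 and 183 CPM in replicates 1 to 4. With TLR2 at 24 h the 4 libraries held 189.7, 186, 173 and 195 CPM, and with TLR7 at 24 h they held 144, 153, 186 and 160.1 CPM. The groups overlapped at 24 h. At 72 h the OVA libraries held 99.1, 197, 988 and 191 CPM. Those of TLR2 at 72 h held 178, 167, 184 and 159 CPM. In TLR7 at 72 h Tcf7 stood at 55.4, 65.3, 117 and 61 CPM. The 72 h TLR7 libraries lay below every TLR2 library and every 24 h library but 1 (OVA replicate 3, 108 CPM), and 3 of 4 of them lay below every OVA library. Tcf7 fell with TLR7 against OVA at 72 h, from 369 ± 415 to 74.7 ± 28.6 CPM (SD, n = 4 each). On the log2 scale this was -2.30 (SE 0.457; adjusted p = 0.00787 by edgeR). The size of that change rested on OVA replicate 3: without it the log2 fold change was -1.12 (edgeR adjusted p = 0.0186), and without it and the middle libraries -0.98 (0.133). Without TLR7 72 h replicate 1 or 4 the change was -2.07 and -2.11, and the adjusted p was 0.0506 and 0.0504. Against TLR2 at 72 h, whose libraries are all higher, the log2 fold change was -1.20 (SE 0.442, edgeR adjusted p = 0.102). All groups share 1 model. Without OVA 72 h replicate 3, a library of neither group, the same change passed (-1.20, SE 0.225, edgeR adjusted p = 0.0122). Without that library and the middle ones, which leaves 1 TLR2 library at 72 h, it was -1.16.

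Over time Tcf7 fell with TLR7, by 1.11 on the log2 scale from 24 h to 72 h (SE 0.442, edgeR adjusted p = 0.0481), with all 4 libraries at 72 h below all 4 at 24 h. That call stood close to the threshold: it was lost without any 1 of 7 of the 8 libraries (adjusted p of 0.0635 to 0.104) and was kept without TLR7 72 h replicate 3 (-1.41, 0.0295). It was also lost without the shallow libraries (-0.88, 0.361) and without the middle ones (-0.98, 0.145), but passed without the middle ones and OVA 72 h replicate 3 (-0.99, 0.0064). With OVA the log2 fold change over time was 1.23 (edgeR adjusted p = 0.0542; DESeq2 0.0314), which was 0.05 without OVA 72 h replicate 3 and passed without replicate 4 (1.35, 0.0244). The TLR7 effect at 72 h minus that at 24 h was -2.33 on the log2 scale (SE 0.625), short of the threshold by edgeR (adjusted p = 0.073) and past it by DESeq2 (-2.26, adjusted p = 0.0157). It was -1.15 without OVA 72 h replicate 3, and it passed by edgeR without OVA 72 h replicate 1 (-2.53, 0.00995) or TLR7 72 h replicate 3 (-2.64, 0.0419).

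Slamf6 (ENSMUSG00000015314, chromosome 1, 171917515 to 171953170, plus strand), the surface receptor of precursor cells, had its lowest mean in TLR7 at 72 h, as Tcf7 did. Its 24 h levels were 42.5, 63.1, 34.5 and 56.9 CPM with OVA. They were 53.6, 48.9, 48.5 and 48 CPM with TLR2, and 26.3, 29.9, 45.8 and 33.7 CPM with TLR7. TLR7 at 24 h lay below TLR2 in all 4 libraries without passing the test (-0.55, edgeR adjusted p = 0.252), and overlapped OVA. At 72 h OVA libraries held 31, 52.7, 90.8 and 74 CPM of Slamf6. TLR2 libraries held 47.6, 30.1, 40.8 and 32.9 CPM, and TLR7 libraries 13.4, 15.5, 26.2 and 24 CPM. All 4 TLR7 libraries at 72 h were below all other 20 libraries, though the highest of them, 26.2 CPM, lay just under TLR7 24 h replicate 1, 26.3 CPM. Slamf6 fell with TLR7 against OVA at 72 h from 62.1 ± 26 to 19.8 ± 6.28 CPM (SD, n = 4 each), or by 1.65 on the log2 scale (SE 0.283; adjusted p = 0.00389 by edgeR). That call was kept in all 8 fits that leave out 1 library, between -1.81 and -1.41, and without the middle libraries (-1.46, 0.018), but not without OVA 72 h replicate 3 and the middle libraries together (-1.06, 0.0675). Against TLR2 at 72 h the log2 fold change was -0.93 (SE 0.279, edgeR adjusted p = 0.0533; DESeq2 adjusted p = 0.0263). It passed by edgeR without TLR2 72 h replicate 2 (-1.03, 0.0326) or TLR7 72 h replicate 3 (-1.10, 0.0455). From 24 h to 72 h Slamf6 fell with TLR7 by 0.78 (SE 0.279, edgeR adjusted p = 0.0309), a call lost without TLR7 24 h replicate 3 (-0.60), TLR7 72 h replicate 1 (-0.62) or replicate 2 (-0.67), without the middle libraries (-0.48, 0.203) and without the shallow ones (-0.49, 0.366). The TLR7 effect at 72 h minus that at 24 h was -1.11 (SE 0.391, edgeR adjusted p = 0.157), and passed without OVA 72 h replicate 1 (-1.25, 0.0366).

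Markers of B cells, which also carry SLAMF6 and BACH2, moved with this difference. Summed over 14 B cell markers, the level was 147 to 284 CPM in TLR7 at 72 h against 389 to 760.1 in OVA at 72 h, and 3 of the 14 fell by edgeR while 0 rose. In each group, 0 of the markers were at 0 counts in every library. A 2-sided exact permutation test of the sums gave p = 0.0286, the smallest of 70 arrangements, and 0.0965 after adjustment over 81 such tests. Most of the sum was Ighm, the heavy chain of IgM, at 127 to 267 CPM in TLR7 and 371 to 689 CPM in OVA. The other 13 markers summed to 14.2 to 19.9 CPM in TLR7 at 72 h and 12.3 to 71.8 CPM in OVA at 72 h. Dendritic cell markers (10 genes) also summed lower, at 102 to 134 against 175 to 248 CPM. Most of that sum was 1 gene, Irf8, at 64.3 to 85.2 CPM in TLR7 and 94.9 to 192 CPM in OVA. Bst2 came next, at 35.3 to 63.9 and 43.6 to 56.1 CPM, which overlap. The part of these other cells in the levels of Slamf6 and Bach2 was not tested.

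Bach2 (ENSMUSG00000040270, chromosome 4, 32238804 to 32586108, plus strand), the repressor of effector genes, was higher at 24 h than at 72 h and was lowest with TLR7 at 72 h. At 24 h its levels were 187, 198, 186 and 315 CPM with OVA. TLR2 libraries at 24 h held 255, 287, 266 and 272 CPM of Bach2. TLR7 libraries at 24 h held 315, 354, 201 and 215 CPM. The groups overlapped: the highest were the clear TLR7 libraries and OVA replicate 4, and the lowest OVA replicates 1 and 3. At 72 h OVA libraries held 69.8, 120.3, 183 and 182 CPM. TLR2 libraries held 215, 122, 195 and 231 CPM, the single clear one being the lowest. In TLR7 at 72 h Bach2 stood at 54.2, 65.3, 79.1 and 49.9 CPM. These lay below all TLR2 libraries and below all OVA libraries but replicate 1. With TLR7 Bach2 fell from 24 h to 72 h by 2.13 on the log2 scale (SE 0.279, edgeR adjusted p = 0.000253), from 271 ± 74.9 to 62.1 ± 13 CPM (SD, n = 4 each). That call was kept in all 8 fits without 1 library (-2.27 to -1.97) and without the middle libraries (-2.42, adjusted p = 3.11e-06), and lost without the shallow ones (-1.92, 0.0775). The 13 B cell markers other than Ighm were lower over time too, at 45.5 to 78.2 CPM in TLR7 at 24 h and 14.2 to 19.9 at 72 h. So was the sum of dendritic cell markers, at 228 to 456 and 102 to 134 CPM. Most of it was again Irf8, at 171 to 332 and 64.3 to 85.2 CPM. The part of these cells in the fall of Bach2 was not tested. With OVA and TLR2 the libraries of the times were also apart, and the log2 fold changes were -0.68 (edgeR adjusted p = 0.0729; DESeq2 0.0411) and -0.50 (0.135). Both passed without the middle libraries, at -1.08 (0.00583) and -1.12 (0.0276). That with OVA also passed without OVA 24 h replicate 1 (-0.82, 0.0395) or OVA 72 h replicate 4 (-0.89, 0.0211). The 13 B cell markers summed lower at 72 h here too. With OVA they held 139.5 to 356 CPM at 24 h and 12.3 to 71.8 at 72 h. With TLR2 they held 170 to 232 and 13.5 to 143 CPM. Their part in these changes of Bach2 was not tested.

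Between agents at 72 h, Bach2 fell with TLR7 against OVA by 1.16 on the log2 scale (SE 0.272, edgeR adjusted p = 0.0211) and against TLR2 by 1.62 (SE 0.275, 0.0133). Neither call was kept without the middle libraries, where the changes were -0.92 against OVA (0.0679) and -0.94 against TLR2 (0.594). The call against OVA was also lost without OVA 72 h replicate 3 (adjusted p = 0.0774) or 4 (0.0948), or TLR7 72 h replicate 1 (0.112), 2 (0.0613) or 4 (0.119). That against TLR2 was lost without TLR2 72 h replicate 1 (-1.55), or TLR7 72 h replicate 1 (-1.55), 2 (-1.64) or 4 (-1.53). The TLR7 effect at 72 h minus that at 24 h was -1.45 (SE 0.38, edgeR adjusted p = 0.0702; DESeq2 -1.40, 0.0223). By edgeR it passed without OVA 24 h replicate 4 (-1.67, 0.0491), OVA 72 h replicate 1 (-1.60, 0.0121) or TLR7 72 h replicate 3 (-1.59, 0.0449).

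Lef1 and Myb moved the other way over time: both rose from 24 h to 72 h with TLR2 and with TLR7. Lef1 (ENSMUSG00000027985, chromosome 3, 131110471 to 131224356, plus strand) encodes the partner of TCF-1 at the same motif. Its 24 h levels were 131, 57.7, 123 and 59.4 CPM with OVA. They were 58.3, 55.1, 58.5 and 58.3 CPM with TLR2, and 57.7, 53.6, 90.7 and 129 CPM with TLR7. Every clear 24 h library, whatever the agent, held 53.6 to 59.4 CPM, and the 4 higher values are the 4 middle libraries. At 72 h Lef1 stood at 155, 101, 381 and 74.8 CPM with OVA, the highest being replicate 3. TLR2 libraries held 123, 179, 127 and 124 CPM. TLR7 libraries held 207, 201, 191 and 174 CPM. With TLR2 and with TLR7 all 72 h libraries lay above all those of 24 h. The log2 fold changes were 1.27 with TLR2 (SE 0.384, edgeR adjusted p = 0.019) and 1.22 with TLR7 (SE 0.383, 0.0161). The first was lost without TLR2 72 h replicate 2 (1.12, 0.0767) and the second without TLR7 24 h replicate 1 (1.08, 0.058) or 2 (1.06, 0.0611). In the 16 clear libraries they were 1.66 and 1.80. With OVA the change was 0.94 (SE 0.381, edgeR adjusted p = 0.0766). It was 1.83 (adjusted p = 0.000534) without the middle libraries, 0.25 without OVA 72 h replicate 3 alone, and 1.11 (0.0249) without replicate 4 alone.

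Myb (ENSMUSG00000019982, chromosome 10, 21124935 to 21160984, minus strand) stood at 49.4, 21.2, 77.5 and 37.2 CPM with OVA at 24 h. TLR2 libraries at 24 h held 14.4, 17.5, 23.5 and 13.1 CPM of Myb. TLR7 libraries held 10.8, 11.3, 44.4 and 46.3 CPM. The clear libraries of both agonists held at most 23.5 CPM, and those of OVA 21.2 and 37.2 CPM. At 72 h the OVA libraries held 89.4, 57.7, 117 and 54.3 CPM. TLR2 libraries held 52.3, 64, 45.7 and 42 CPM, and TLR7 libraries 141, 105, 95.7 and 91.2 CPM. All TLR7 libraries at 72 h lay above all TLR2 libraries at 72 h. Myb rose over time by 1.57 with TLR2 (SE 0.427, edgeR adjusted p = 0.0122) and by 1.93 with TLR7 (SE 0.430, 0.00238). Both calls were kept in all 8 fits without 1 library, and without the middle libraries the rises were 1.93 and 3.30. That with TLR7 was lost without the shallow libraries (1.47, 0.102). Markers of hematopoietic progenitors (10 genes) summed to 7.61 to 10.9 CPM with TLR2 at 24 h and 36.9 to 72 at 72 h. With TLR7 they summed to 12 to 39.2 and 19.3 to 58.8 CPM, which overlap. Most of these 72 h sums was 1 gene, Kit. The part of such cells in the rise of Myb was not tested. The 72 h difference of TLR7 against TLR2 in Myb was 1.09 (SE 0.419, edgeR adjusted p = 0.114). At 24 h TLR2 against OVA gave -1.44 (SE 0.426, edgeR adjusted p = 0.176; DESeq2 -1.43, 0.0324); by edgeR it passed without OVA 24 h replicate 2, the lowest of its group (-1.73, 0.0399).

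Over the clear libraries, Lef1 at 24 h held 53.6 to 59.4 CPM and at 72 h 101 to 381, Bach2 198 to 354 and 49.9 to 183, and Myb 10.8 to 37.2 and 57.7 to 141. For these 3 genes the times did not overlap, and for Tcf7, Slamf6, Foxo1, Satb1 and Id3 they did. The clear libraries were set by a component that follows time, and the share of all genes apart in this way was not counted. The gap is thus no result about these 3. All 8 middle libraries lay between the 24 h and 72 h medians of the clear libraries for Lef1, Bach2 and Myb. For Slamf6 this held for 7 of 8, for Foxo1 for 6, for Satb1 for 4, for Tcf7 for 3 and for Id3 for 2.

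Satb1 (ENSMUSG00000023927, chromosome 17, 51736187 to 51833290, minus strand), the chromatin organizer, and Foxo1 (ENSMUSG00000044167, chromosome 3, 52268336 to 52353221, plus strand) had their lowest means with OVA at 24 h. Satb1 stood at 469, 214, 535 and 207 CPM with OVA at 24 h. TLR2 libraries at 24 h held 421, 956, 406 and 682 CPM of Satb1, and TLR7 libraries 834, 989, 613 and 738 CPM. Every TLR7 library lay above every OVA library at 24 h, and TLR2 spanned both. At 72 h Satb1 stood at 653, 489, 791 and 305 CPM with OVA. It stood at 415, 675, 683 and 749.8 CPM with TLR2, and at 879, 911, 758 and 837 CPM with TLR7. The TLR7 libraries were above all TLR2 libraries and above 3 of 4 OVA libraries. At 24 h the log2 fold change of TLR7 against OVA was 1.15 (SE 0.329, 95% interval 0.46 to 1.85, edgeR adjusted p = 0.139). DESeq2 called it (1.17, adjusted p = 0.0391). In the clear libraries, 2 of each group, it was 2.17 (edgeR adjusted p = 0.00884). Over time with OVA the change was 0.65 (edgeR adjusted p = 0.139), and 1.61 (0.000528) without the middle libraries.

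Foxo1 varied least. At 24 h it held 113, 68.7, 104 and 75 CPM with OVA. It held 76.6, 132, 80 and 103 CPM with TLR2, and 122, 127, 102 and 139.6 CPM with TLR7. The groups overlapped. At 72 h Foxo1 held 118, 116, 135 and 70.3 CPM with OVA. It held 107, 159.6, 124 and 134 CPM with TLR2, and 129, 143, 145 and 142 CPM with TLR7. By edgeR it passed in 0 of the 11 comparisons, with 1 unadjusted p below the 0.05 threshold and 0 calls by DESeq2. The log2 fold change of TLR7 against OVA at 24 h was 0.44 (SE 0.203, edgeR adjusted p = 0.466), and over time it was 0.28 with OVA (0.296) and 0.42 with TLR2 (0.101). The last pair passed without the middle libraries, at 0.77 (0.00484) and 0.73 (0.0163), and the last one also without TLR2 24 h replicate 2 (0.60, 0.0408). The mRNA level does not show where the FOXO1 protein is in the cell.

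Id3 (ENSMUSG00000007872, chromosome 4, 136143497 to 136145755, plus strand), the inhibitor of E proteins, was lower with TLR7 than with OVA in every library at both times, short of the test. With OVA at 24 h its libraries held 14, 14.3, 13.1 and 17.5 CPM. With TLR2 at 24 h they held 19, 5.02, 15.1 and 9.22 CPM, and with TLR7 5.71, 3.72, 9.69 and 7.93 CPM. All TLR7 libraries lay below all OVA libraries, while TLR2 overlapped both. At 72 h Id3 held 9.89, 9.25, 14.7 and 18.5 CPM with OVA. It held 13.7, 6.66, 11.3 and 6.95 CPM with TLR2, and 8.26, 8.26, 7.67 and 5.57 CPM with TLR7. Here too TLR7 lay below OVA in every library. The log2 fold changes of TLR7 against OVA were -1.11 at 24 h (SE 0.350, 95% interval -1.85 to -0.38, edgeR adjusted p = 0.189) and -0.82 at 72 h (SE 0.349, interval -1.55 to -0.08, 0.202), and neither passed. That at 24 h passed in 1 alternative, without the middle libraries and OVA 72 h replicate 3 (-1.73, 0.0433).

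Counted over the 8 genes and 11 comparisons, 11 of 88 values passed by edgeR. For TLR7 against OVA at 72 h, 3 of 8 passed, all 3 lower, against 3.62% of all tested genes in either direction and 3.21% lower. The median log2 fold change of the 8 was -0.35, beside -0.08 over all tested genes. For TLR7 against TLR2 at 72 h, 1 passed, lower (4.8% of all genes in either direction, 3.94% lower). From 24 h to 72 h, 2 rose with TLR2 (39% of all genes either way, 21.7% higher), and with TLR7 2 rose and 3 fell (43.2% either way, 19% higher and 24.2% lower). Beside shares of that size, the counts over time are no result about the 8. With OVA over time 0 of 8 passed by edgeR, against 18.6% of all genes, with 3 unadjusted p-values below the threshold. At 24 h 0 of 8 passed by edgeR for TLR7 against OVA (0.22% of all genes; 3 unadjusted) and for TLR7 against TLR2 (1.24%; 1 unadjusted, 0 by DESeq2). For TLR2 against OVA 0 of 8 passed by edgeR at either time, and 0% of all genes did; 2 unadjusted p-values were below the threshold at each, and DESeq2 called 0 at 72 h. The TLR2 effect at 72 h minus that at 24 h passed by edgeR for 0 of 8 (0% of all genes; 1 unadjusted, 0 by DESeq2). The TLR7 effect at 72 h minus that at 24 h passed by edgeR for 0 of 8 (0.81%; 3 unadjusted). The comparisons with OVA at 1 time share the OVA libraries, and those over time share libraries with those between agents.

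Other fits changed these counts. In the fit without the middle libraries, 5 of 8 passed over time with OVA (48.5% of all genes), 4 with TLR2 (43.4%) and 3 with TLR7 (52.1%), 1 for TLR7 against OVA at 24 h (2.52%) and 2 at 72 h, Tcf7 and Slamf6 (1.63%). Without OVA 72 h replicate 3 the same pair passed for TLR7 against OVA at 72 h (1.89%). In that fit 3 of 8 passed for TLR7 against TLR2 at 72 h, all lower, where 1096 of all genes did. DESeq2 called 1 for TLR2 against OVA at 24 h (2.46%), 1 for TLR7 against OVA at 24 h (1.51%), 2 over time with OVA, Tcf7 and Bach2 (26.8%), and 2 for the TLR7 effect at 72 h minus that at 24 h (3.06%). Without the middle libraries and OVA 72 h replicate 3 together, 5 of 8 passed for TLR7 against OVA at 24 h (Foxo1, Id3, Satb1, Myb and Slamf6) and 0 at 72 h, where 806 and 117 of all genes did. Libraries of the 2 groups did not overlap for 2 of 8 genes in TLR7 against OVA at 24 h (6.64% of all genes) and 2 at 72 h (8.7%). They did not overlap for 5 in TLR7 against TLR2 at 72 h (23.7%), 1 over time with OVA (10.6%), 4 with TLR2 (51.1%) and 5 with TLR7 (48.5%).

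**Figure D2:**
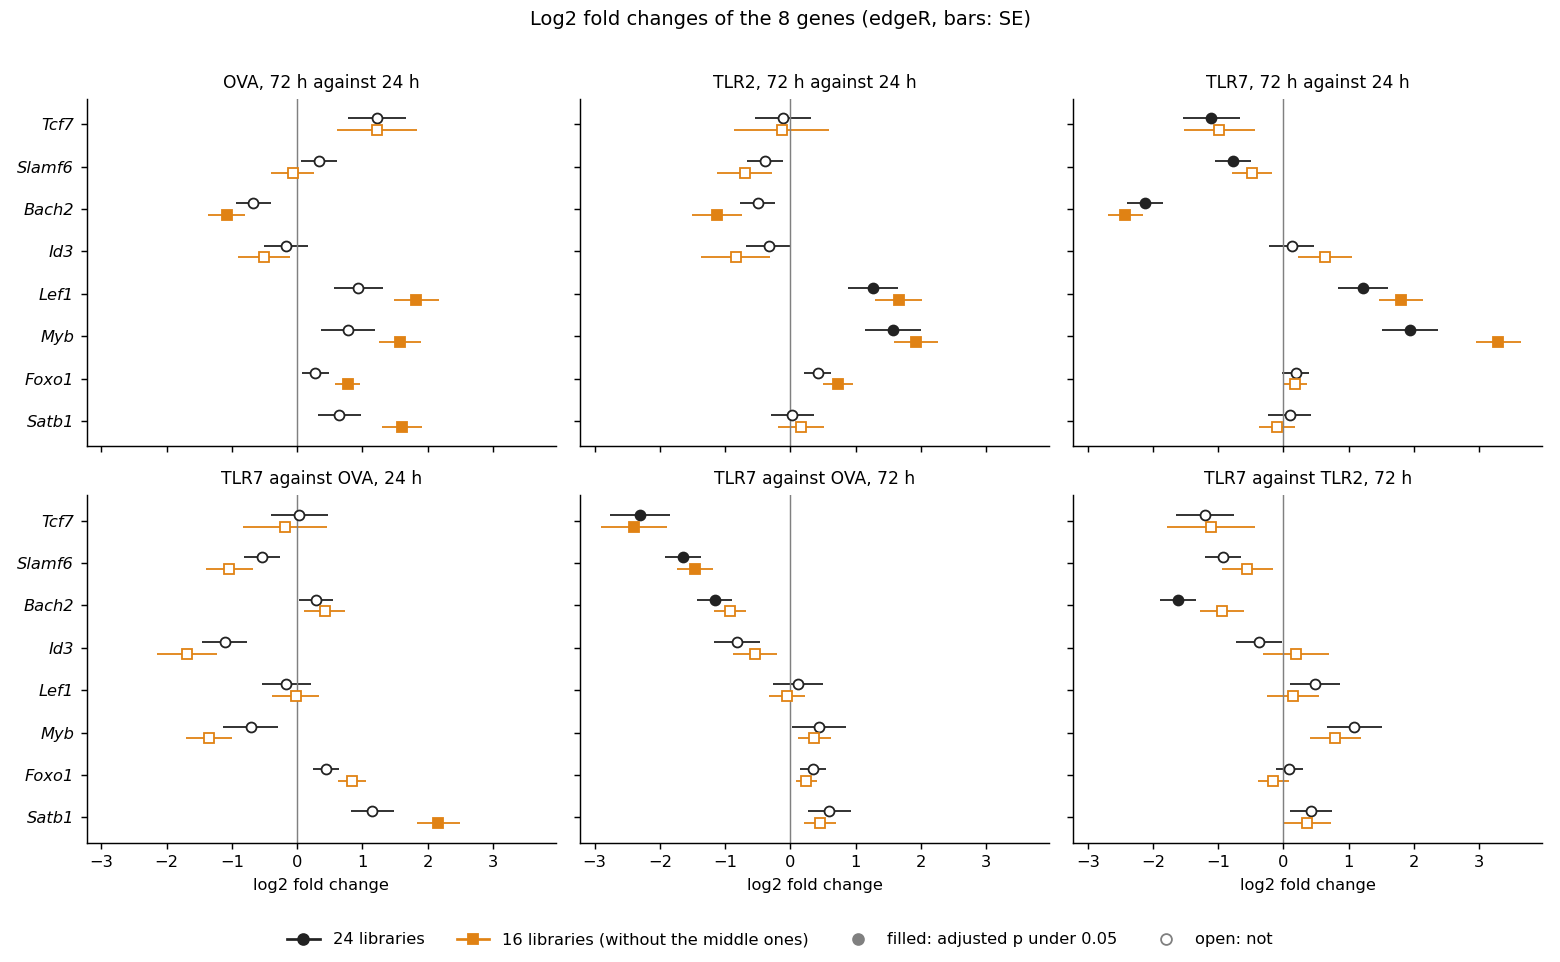
Log2 fold changes (linear axis, bars SE) of the 8 genes in 6 comparisons, by edgeR, over all 24 libraries (black) and without the 8 middle libraries (orange); filled points passed the threshold of 0.05 on the adjusted p. Bach2, Lef1 and Myb differ more between the times without the middle libraries, and for TLR7 against OVA at 72 h Tcf7 and Slamf6 pass in both fits.

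OVA 72 h replicate 3 carried high levels of naive genes. Its Tcf7 level of 988 CPM compares with at most 197 CPM in the other 23 libraries, its Lef1 level of 381 CPM with at most 207, and its Slamf6 level of 90.8 CPM with at most 74. Those 3 of the 8 genes were highest of all 24 libraries there, and the other 5 were not. The 20 surface and quiescence genes of naive and memory cells went further: 15 of 20 were highest of the 24 libraries in this one, against 18.4% of all tested genes. Among them were Klf2, the factor that controls exit from lymph nodes, at 344 CPM against at most 16.3 elsewhere, and S1pr1, the exit receptor under its control, at 565 against at most 61.7. Of 15 effector factors, 1 was highest there. Markers of macrophages and monocytes also summed highest there, at 82.5 CPM against 62 CPM or less in the other libraries, and B cell markers at 760.1 CPM, within the range at 24 h. Erythroid markers were highest there too, at 26.3 CPM. The part of other cells in these levels was not tested.

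**Figure D3:**
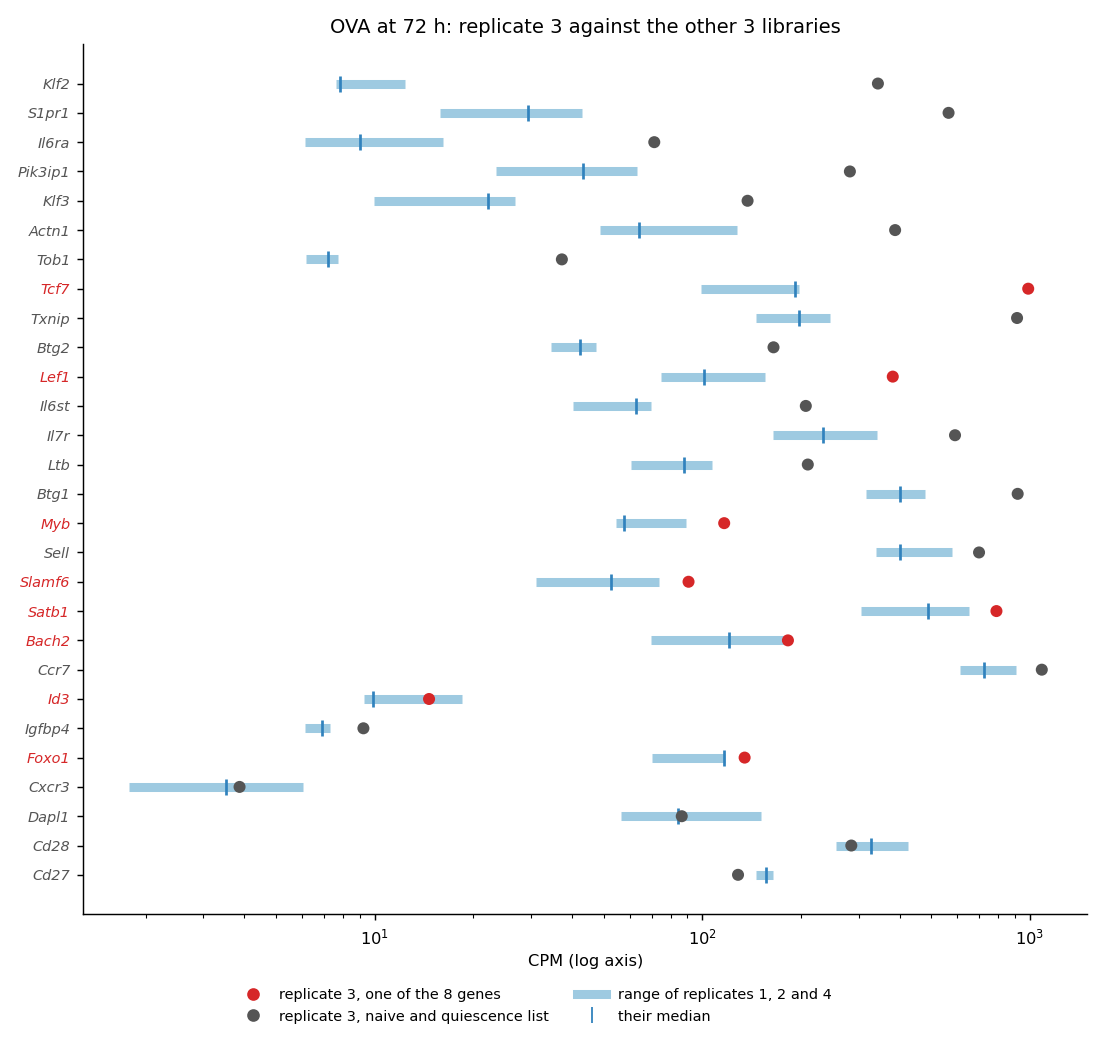
CPM (log axis) of the 8 genes (red names) and of 20 naive and quiescence genes in OVA 72 h replicate 3 (points) beside the range (bars) and median (ticks) of OVA 72 h replicates 1, 2 and 4, ordered by the ratio to that median. Klf2 was 43.8-fold and S1pr1 19.2-fold above the median, Tcf7 5.17-fold and Lef1 3.77-fold, while Foxo1 (1.16-fold) stood near it and Cd27 and Cd28 stood below it.

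For the lists that follow, counts over time stand beside 18.6% of all genes called with OVA, 39% with TLR2 and 43.2% with TLR7. Without the middle libraries the shares were 48.5% with OVA and 52.1% with TLR7. Counts for TLR7 against OVA at 72 h stand beside 3.62%. That share was 1.63% without the middle libraries and 1.89% without OVA 72 h replicate 3. It was 4.8% for TLR7 against TLR2 at 72 h and 0.81% for the difference of TLR7 effects. A count near those shares is no result about a list. The same 20 naive and memory genes fell with TLR7 against OVA at 72 h in 8 cases and rose in 0; the median of their log2 fold changes was -1.18, beside -0.08 over all tested genes. Dapl1 fell by 2.81 (SE 0.606, edgeR adjusted p = 0.0125). Klf3, a quiescence factor, fell by 2.54 (0.537, 0.0114), and Il6ra, a subunit of the interleukin-6 receptor, by 2.07 (0.509, 0.0265). Without OVA 72 h replicate 3, 3 of 20 fell and the median was -0.26; without the middle libraries 4 fell. Over time with OVA 8 of 20 rose (11 without the middle libraries), led by Klf2 (3.71), S1pr1 (2.92) and Il7r, the interleukin-7 receptor (2.13), and without OVA 72 h replicate 3, 0 of 20 did; in that fit edgeR called 3 of 14741 genes in all, so the 0 is no result about the list. With TLR2, 5 rose over time, among them Pik3ip1 (3.58), an inhibitor of PI3K, Il7r (2.99) and Ltb (2.79). With TLR7, 1 rose (Txnip, 1.45; 8 rose without the middle libraries) and 4 fell, among them Il6st (-1.64), Actn1 (-1.18) and Ccr7 (-1.14), the lymph node homing receptor. Ccr7 and Il6st also passed for the TLR7 effect at 72 h minus that at 24 h, at -1.29 and -2.10 (edgeR adjusted p = 0.0432 and 0.041).

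Of 14 tested partners of TCF-1 and LEF-1 and genes of the Wnt pathway, edgeR called 0 for TLR7 against OVA at 72 h (median -0.07 on the log2 scale). Over time with TLR7, 4 rose, among them Aes (1.63), a corepressor that lacks the full TLE domains, and Tle3 (0.62), and 2 fell, Tle4 (-1.18) and Apc (-0.79). With TLR2 over time 2 rose, Tle2 (6.18) from 0.0311 to 3.00 CPM, and Aes (1.35). Of 18 genes around FOXO1, 3 fell with TLR7 against OVA at 72 h, among them Bcl6 (-2.04), a repressor active in memory precursors, and Pik3r1 (-1.43), a regulatory subunit of PI3K. The median was -0.52; 1 of 18 fell without the middle libraries, and 0 without OVA 72 h replicate 3. Over time with TLR7 1 of the 18 rose (Pik3cd, 1.44; 5 without the middle libraries) and 7 fell, near the 43.2% of all genes, among them Bcl6 (-2.68), Trib2 (-1.16) and Foxp1 (-1.10), a factor of quiescence, while with TLR2 6 rose, led by the cell cycle inhibitors Ccng2 (3.47) and Cdkn1b (2.08), and 0 fell.

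Among 14 partners and counterparts of BACH2, edgeR called 0 for TLR7 against OVA at 72 h, with a median of 0.08. From 24 h to 72 h with TLR7, 2 rose, Batf3 (3.67) and Jund (1.01), and 5 fell, near the 43.2% of all genes, among them the AP-1 genes Fos (-2.63) and Fosl1 (-2.03) and the activation factor Irf4 (-1.43). With TLR2, 3 rose, Batf3 (3.85), Jun (1.33) and Fosl2 (0.73). Of the 4 tested E protein and Id genes other than Id3, Tcf12 fell with TLR7 at 72 h against OVA (-0.69) and against TLR2 (-0.54). Against OVA it did not pass without the middle libraries. Of 11 genes of the SLAM family and its adaptors, 2 fell with TLR7 against OVA at 72 h, the kinase Fyn (-0.80) and the phosphatase Ptpn6 (-0.97). Both fell against TLR2 (-0.78 and -0.95). The count against OVA was 1 without the middle libraries. Of 15 effector and exhaustion factors, Tox fell by 1.84 (SE 0.284, edgeR adjusted p = 0.00315) and Eomes by 1.40 (0.361, 0.0331) with TLR7 against OVA at 72 h, and 0 rose; 1 of 15 fell without the middle libraries or without OVA 72 h replicate 3. Tox, which maintains exhausted cells, and Eomes, a memory and effector factor, also fell with TLR7 over time, by 1.60 and 2.21. Batf3, Irf4 and Id2 stand in 2 of these lists.

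Pairs of the 8 genes were compared within 3 sets of 8 libraries (clear 24 h, clear 72 h, middle), since the sets lie apart; this gave 84 relations of log2 CPM. Of these, 9 had an adjusted permutation p for Pearson's r below the 0.05 threshold. In the clear 72 h libraries Tcf7 followed Bach2 (r = 0.943, permutation p = 9.92e-05, adjusted 0.00833; rho = 0.952, p = 0.00114, adjusted 0.0479) and Slamf6 (r = 0.928, permutation p = 0.000446, adjusted 0.0187; rho = 0.905, p = 0.00456, adjusted 0.0766). Without the 2 farthest libraries r was 0.958 and 0.823. In the clear 24 h and the middle libraries r was -0.315 and 0.092 for Tcf7 with Bach2. For Tcf7 with Slamf6 it was 0.775 and 0.585 there, and none of these passed after adjustment. The permutations take no account of the groups: the clear 72 h set holds 3 OVA, 1 TLR2 and 4 TLR7 libraries, the clear 24 h set 2 OVA, 4 TLR2 and 2 TLR7, and the middle set mixes agents and times. Differences between agents, and in the middle set times, are thus part of every relation given here, and no group holds enough libraries to test one within it. Foxo1 followed Satb1 in the clear 24 h libraries (r = 0.946, permutation p = 0.00109, adjusted 0.0246; rho = 0.929, p = 0.00223, adjusted 0.0624; 0.911 without 2 libraries). It did so in the middle ones too (r = 0.886, permutation p = 0.00429, adjusted 0.041; rho = 0.762, p = 0.0368, adjusted 0.155; 0.648 without 2). Id3 ran against Satb1 in the middle libraries (r = -0.919, permutation p = 0.00117, adjusted 0.0246; rho = -0.952, p = 0.00114, adjusted 0.0479; -0.918 without 2). In the clear 24 h libraries Id3 ran against Foxo1 (r = -0.949, permutation p = 0.00218, adjusted 0.0354, rho = -0.81, p = 0.0218, adjusted 0.146, and r = -0.926 without 2). In the clear 72 h libraries r was 0.492 for Foxo1 with Satb1, -0.149 for Id3 with Satb1 and -0.474 for Id3 with Foxo1. None of these passed. The relations of Lef1 with Id3 (r = 0.846, clear 24 h) and with Foxo1 (r = 0.855, middle) fell to 0.533 and 0.43 without 2 libraries and rest on them; the ninth, Bach2 with Slamf6 in the clear 72 h libraries, was 0.865 and 0.793.

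The genes most like each member over the 24 libraries, by Pearson's r of log2 CPM among 9097 genes, are given as a description; the libraries share depth and the time axis. Tcf7 was nearest to Klf3 (r = 0.967), Numb (0.938) and Bcl10 (0.929); without OVA 72 h replicate 3 these ranked 7, 58 and 74. Lef1 was nearest to Acp5 (0.97), Prex1 (0.965) and Zbtb4 (0.964), which ranked 53, 79 and 107 without that library. Among the 3 genes nearest to Bach2 were Tpr (0.972) and Tgif1 (0.969), and Myb was nearest to Pglyrp2 (0.972), Skap1 (0.962) and Tor4a (0.96). Foxo1 was nearest to Aim1 (0.913), Osbpl9 (0.906) and Fosl2 (0.898). Satb1 was nearest to Id2 (0.903), the E protein inhibitor of effector cells, Asxl1 (0.892) and Smim3 (0.87). Id3 was nearest to Orai1 (0.924), Tns1 (0.923) and Nrros (0.906). Slamf6 was nearest to Ighm (0.944), Ipcef1 (0.929) and Pde6d (0.925). Ighm stayed first without the middle libraries and without OVA 72 h replicate 3, and within the sets of 8 libraries its r with Slamf6 was 0.909 (clear 24 h), 0.972 (clear 72 h) and 0.807 (middle). Whether the 2 genes come from the same cells was not tested.

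**Figure D4:**
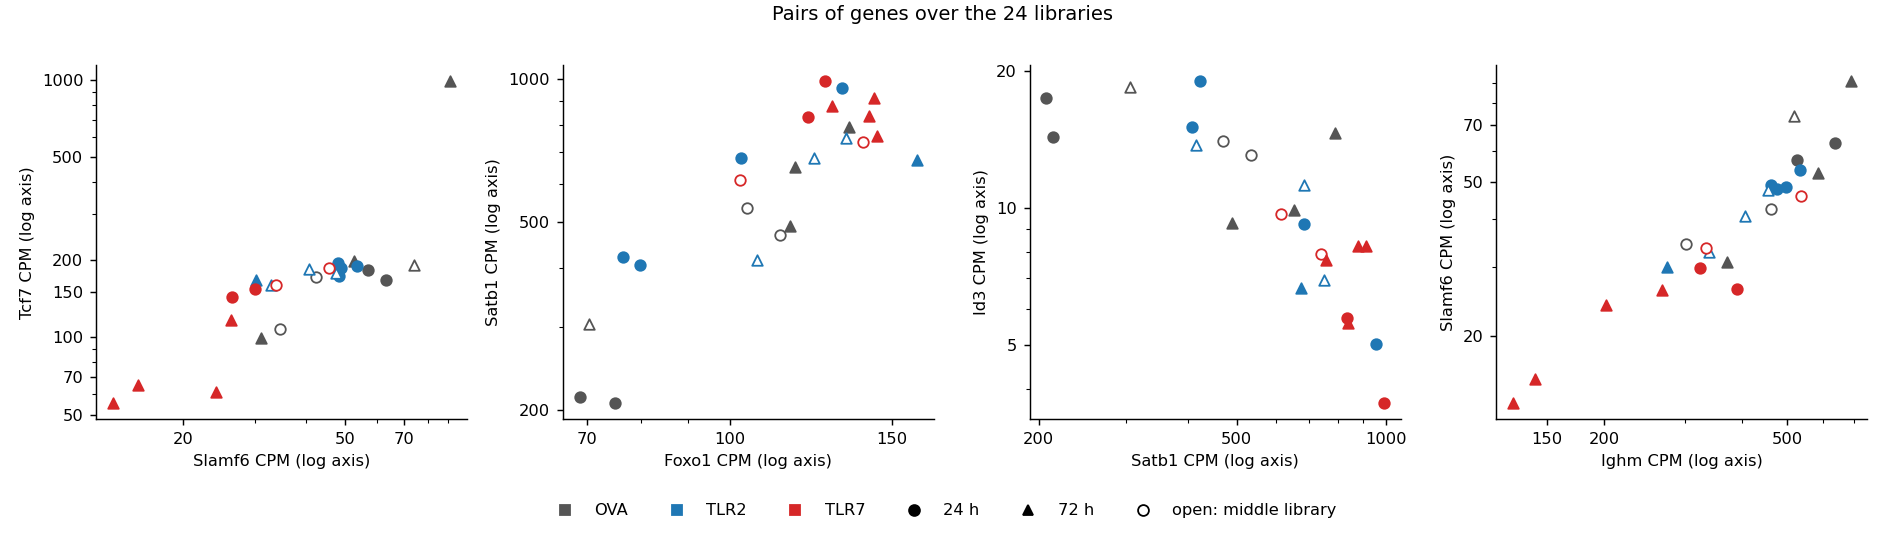
CPM (log axes) of 4 pairs of genes in the 24 libraries; color is the agent, circles are 24 h, triangles 72 h, and open symbols middle libraries. Tcf7 and Slamf6 are lowest together in TLR7 at 72 h and highest together in OVA 72 h replicate 3. Over the 24 libraries Satb1 rises with Foxo1 and runs against Id3, and Slamf6 rises with Ighm. Within the clear 72 h libraries the relations of Satb1 with Foxo1 and Id3 are weaker (r = 0.492 and -0.149).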

How the data were processed

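Each library has a table of expected counts per gene, as deposited by the authors. Per the submitters' processing notes, STAR (an aligner), RSEM (which estimates counts) and edgeR were used on GRCm38; the sources used here give no versions and no strand setting. Antisense or other genes share exon bases with Lef1, Foxo1, Bach2, Satb1 and Myb, so those 5 are uncertain to that extent. Fractions occur in 28.7% of the deposited values above 0, so counts were rounded. Totals were 10.5 to 27.1 M, so 3 counts correspond to 0.286 CPM at the lowest scaled depth and 0.11 at the highest (counting error only).

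CPM was computed on TMM library sizes (edgeR 4.0.16, R 4.3.3), log2 CPM with a prior count of 2. Genes were kept by filterByExpr (minimum count 10, minimum total 15). All 24 libraries entered 1 quasi-likelihood model with a term per group (residual degrees of freedom: 18). P-values were adjusted by Benjamini-Hochberg over the 14560 genes, with a threshold of 0.05. The script was tested on simulated counts. Groups and replicate numbers came from the labels; the numbers did not pair the libraries (0 of 15 pairs of groups had every correlation over 0.1), and replicates differed beyond sampling noise. Alternatives were DESeq2 1.42.0, RLE scaling, no filter, the replicate block, and fits without each library, the middle or the shallow libraries; the fit without the middle libraries and OVA 72 h replicate 3 was chosen after seeing the data. Ranges and counts over fits without 1 library use the libraries of the groups compared. The 8 genes and the lists were chosen with earlier results of these data known. All 8 are named in every comparison, with the 3 genes most like each and up to 3 past the threshold per list and direction with the largest log2 fold changes; of these the text gives a part, and a few are not reported here. Gene positions are from GENCODE M21, which held 48058 of the 48526 IDs, and sequences from RefSeq.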

Additional observations from a re-analysis of the deposited data

Results flagged for a closer look

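Within groups of 4 libraries, 6 of 48 sets held a library far from the other 3 by Dixon's test at the 95% level, which flags about 1 in 20 by chance. Tcf7 in OVA 72 h replicate 3 was 988 CPM, with the nearest library at 197 CPM. Tcf7 in TLR7 72 h replicate 3 was 117 CPM, with the nearest at 65.3 CPM. Lef1 in TLR2 24 h replicate 2 was 55.1 CPM, against 58.3 CPM in the nearest, a small gap in a narrow group. Lef1 in TLR2 72 h replicate 2, the single clear library of its group, was 179 CPM, against 127 CPM. Bach2 in OVA 24 h replicate 4, a shallow library, was 315 CPM, against 198 CPM. Slamf6 in TLR2 24 h replicate 1 was 53.6 CPM, against 48.9 CPM.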

How the results depend on the processing

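Of the 88 values (8 genes in 11 comparisons), 0 of the 11 that passed and 27 of the 77 that did not changed sign under some alternative. The values followed through every alternative are 40, the 11 that passed and others chosen after seeing the data; the text prints fold changes of the 8 genes for these only. All 11 calls were kept by DESeq2, RLE scaling and the replicate block, 10 without a filter on low counts, 7 without the middle libraries and 1 (Myb over time with TLR2) without the 5 shallow libraries, which leaves 2 TLR7 libraries at 72 h.

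Counts of the 8 genes that passed moved as follows. By DESeq2 the count was 1 for TLR2 against OVA at 24 h and for TLR7 against OVA at 24 h (0 by edgeR), 2 for TLR7 against TLR2 at 72 h (1 by edgeR), 2 over time with OVA (0) and 2 for the TLR7 effect at 72 h minus that at 24 h (0). With the replicate block it was 2 for TLR7 against TLR2 at 72 h, where Slamf6 was added (-0.99, adjusted p = 0.0449), and the block changed no other of these counts; 8 of 24 libraries correlated best with their own number. Without the middle libraries it was 1 for TLR7 against OVA at 24 h, 0 for TLR7 against TLR2 at 72 h, and 5, 4 and 3 over time with OVA, TLR2 and TLR7 (0, 2 and 5 with them). Without the shallow libraries it was 0 for TLR7 against OVA and against TLR2 at 72 h, 1 over time with TLR2 and 0 with TLR7. Without the middle libraries and OVA 72 h replicate 3 it was 5 for TLR7 against OVA at 24 h (0 with them), 0 for TLR7 against OVA (3) and against TLR2 (1) at 72 h, and 5, 4 and 4 over time with OVA, TLR2 and TLR7 (0, 2 and 5). Leaving out 1 library of the groups compared gave 0 to 1 for TLR2 against OVA at 24 h. It gave 1 to 3 for TLR7 against OVA and 0 to 2 for TLR7 against TLR2 at 72 h. Over time it gave 0 to 3 with OVA, 1 to 3 with TLR2 and 3 to 5 with TLR7. The difference in TLR7 effects gave 0 to 3, and the other comparisons 0 throughout. Without OVA 72 h replicate 3, a library of neither group, the count for TLR7 against TLR2 at 72 h was 3.

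Reversals were all in values that had not passed. Without OVA 72 h replicate 3, Tcf7 in TLR2 against OVA at 72 h turned from -1.10 to 0.08 (leaving out 1 library gave -1.31 to 0.08). Without it and the middle libraries, that value was 0.18, Tcf7 over time with OVA -0.25, Tcf7 in the difference of TLR2 effects 0.10 and Slamf6 in the difference of TLR7 effects 0.043. Leaving out 1 library gave 0.05 to 1.42, -1.52 to -0.16 and -1.28 to -0.87 for the last 3 of these. Each of these values uses OVA at 72 h. There replicate 3 held 988 CPM of Tcf7 and the other libraries 99.1 to 197 CPM. For Slamf6 it held 90.8 CPM and the others 31 to 74 CPM. These fits also hold fewer libraries. Why replicate 3 stands apart was not tested.

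Counts over all genes depended on the fit. Where edgeR called 0 genes, for TLR2 against OVA at 24 h and 72 h and the difference of TLR2 effects, 2211, 1693 and 919 had an unadjusted p below the 0.05 threshold, and DESeq2 called 350, 83 and 2. DESeq2 called 239, 1025, 941 and 1490 genes for TLR7 against OVA and TLR2 at 24 h and then at 72 h (32, 180, 527 and 699 by edgeR), and without the shallow libraries edgeR called 0 of each. It called 398, 204, 258 and 0 of them without the middle libraries. For the difference of TLR7 effects the count was 118 by edgeR, 72 with RLE scaling, 451 by DESeq2, 45 without the middle libraries and 0 without the shallow ones. The replicate block gave 15 for TLR7 against OVA at 24 h, and no filter gave 1129 over time with OVA (2709). The shallow libraries left out, the counts over time were 0, 2847 and 5 with OVA, TLR2 and TLR7 (2709, 5681 and 6288 with them). Leaving out 1 library of the groups compared gave 0 to 4709 over time with OVA, 1371 to 5200 with TLR2 and 3926 to 6816 with TLR7. Without OVA 72 h replicate 3, a library of neither TLR2 group, the count over time with TLR2 was 6372. Without the middle libraries the count was 7673 with OVA. Depth limits the 5 libraries of 10.5 to 11.7 M counts most.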
